A study of Cordyceps militaris with 6 samples.

Results

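Alternative 3' and 5' splice site junctions are introns that the authors' tables class as using another acceptor (3' site) or donor (5' site) than the annotated one. They were chosen by their class word in the deposited junction tables, which hold the reads that cross each intron in each library. Of 20130 junctions listed in any library, 1657 (8.23%) had one of these words in at least 1 library. Of these, 964 were alternative 3' and 693 alternative 5' junctions, in 1281 of the 6475 genes with a listed junction. For 68 of the 1657 the class word was "other" in some further library, and they were kept.

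Poly(A) RNA was taken from mycelium of Cordyceps militaris, an insect-pathogenic fungus cultivated as a source of cordycepin. The 6 libraries are passages 1 to 6 of the YCC strain, 1 library each, and every one was grown for 72 h in shaken medium in the dark, so passage number is the only labelled difference between them. The series asks how transcriptomes diverge as a subcultured strain degenerates. Without replicate libraries, no pair of passages could be set against replicate spread, and the 6 cultures belong to one labelled series.

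Splicing removes an intron between a donor at its 5' end and an acceptor at its 3' end. The spliceosome can join a given donor to more than one acceptor, or a given acceptor to more than one donor, and the mature RNA then gains or loses a stretch of exon. Within coding sequence such a stretch keeps the reading frame only when its length is a multiple of the codon length. Fungal introns are short, and a shift of the frame often brings a premature stop, which can mark an RNA for nonsense-mediated decay.

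Junction reads per library ran from 5695049 in passage 1 to 9564574 in passage 2, and 14981 to 16779 junctions were listed. No junction is listed with under 5 reads in a library, so a junction that is not listed had at most 4 reads or was dropped by the authors. Passage 1, the shallowest library, listed the fewest junctions of both classes.

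Alternative 3' junctions numbered 555, 684, 609, 685, 665 and 725 in passages 1 to 6. Alternative 5' junctions numbered 399, 491, 441, 473, 486 and 499. With every library brought down to the junction reads of passage 1, the numbers expected were 555 to 636.8 for alternative 3' and 399 to 428.1 for alternative 5' junctions, so the gap between passage 1 and the later passages narrowed at equal depth and did not close. The 2 classes together took 5.91, 5.99, 5.74, 5.65, 5.75 and 5.93% of junction reads, a range of under 1 percentage point with no order over passages. Exact 95% intervals of counting error on these shares overlapped for some libraries (5.89 to 5.93% in passage 1 and 5.91 to 5.94% in passage 6), and they leave out variation between cultures.

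**Figure D1:**
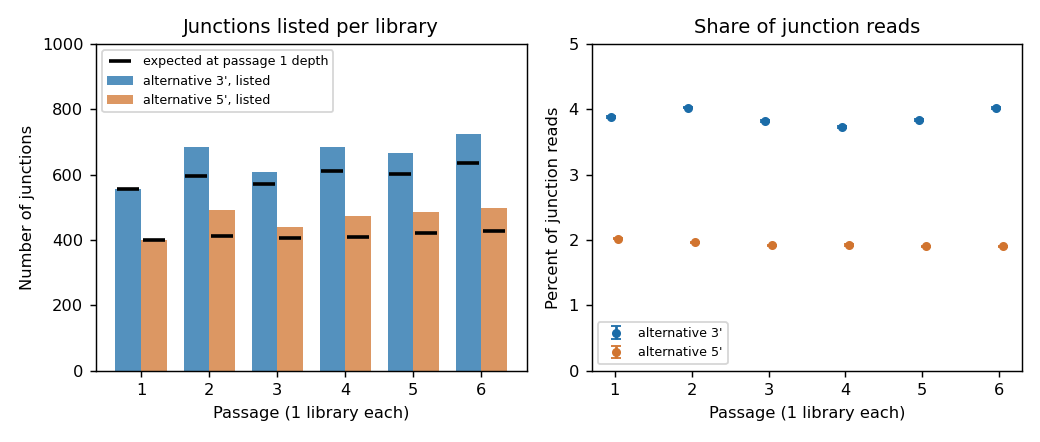
Left, junctions of each class listed in each library (bars) and the number expected at the junction reads of passage 1 (black marks). Right, the percent of junction reads of each class with exact 95% intervals of counting error, which are smaller than the points. Alternative 3' junctions ranged from 555 to 725 and alternative 5' junctions from 399 to 499.

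How far an alternative site competed with the known one was measured as usage. Usage is the reads of the alternative junction as a percent of its reads plus those of the known junction that shares its other site. Further alternative sites of the same intron are left out, so high usage need not mean most reads of that intron. A known junction of this kind was listed for 993 of the 1657. Values lay mostly at the ends of the scale. Under 10% of the reads of such a pair went to the alternative site at 733 junctions (minor sites, median usage 0.364%). Over 90% did at 153 junctions (major sites, median 98.8%). Between these limits, which were set after the values were seen, lay 107 junctions (median 38.7%). The other 664 had no known junction with the same donor or acceptor listed in any library.

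Reads were spread the other way. The 733 minor junctions held 1.28% of the reads of both classes, the 107 intermediate ones 2.38%, the 153 major ones 56.8% and the 664 without a known junction 39.5%. Median summed reads were 15 for minor and 3028 for major junctions. For 727 of the 733 minor junctions the known junction was listed in all 6 libraries, but for 32 of the 153 major junctions only. These contrasts in median reads and in listing follow largely from the usage limits. A minor junction needs a known junction with many more reads than its own, and a major junction the reverse. The classes differed in how their reads were spread, with 63.3% of alternative 3' reads and 43.8% of alternative 5' reads on major junctions. On junctions without a known one the shares were 32.5% and 53.5%.

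**Figure D2:**
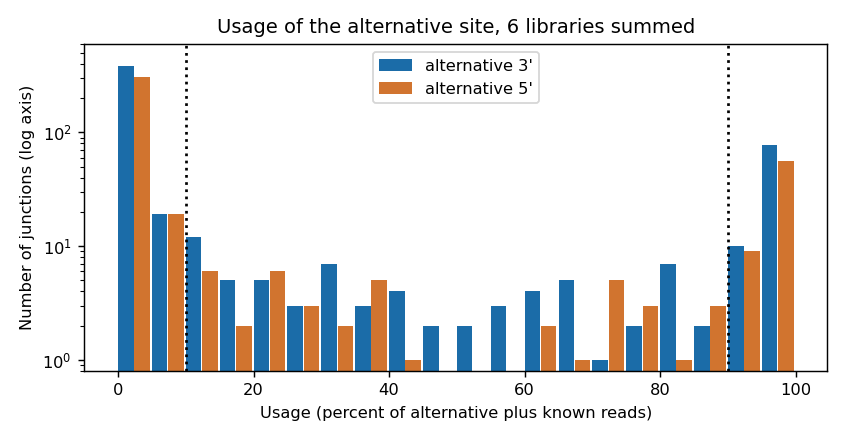
Number of junctions (log axis) by usage of the alternative site in bins of 5 percentage points, for the 993 junctions with a listed known junction, 6 libraries summed. Dotted lines mark 10% and 90%, and most junctions of both classes lie outside them.

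Recurrence differed from that of known junctions. Of the 1657 alternative junctions, 822 (49.6%) were listed in all 6 libraries and 422 (25.5%) in 1. Of the 11111 Known junctions, 85.9% were listed in all 6 and 3.8% in 1. Summed reads had a median of 81 for alternative and 802 for Known junctions, and recurrence moved with reads. Among junctions with 100 to 499 summed reads, 92.7% of alternative and 94.6% of Known ones were in all 6 libraries. Among those with 20 to 99, the shares were 18.0% and 30.2%.

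By usage, 149 of 153 major junctions were listed in all 6 libraries and 93 of 733 minor ones (12.7%), while 349 minor ones (47.6%) were in 1. Listing in all 6 needs 5 reads in each, and most minor junctions had too few reads for it. With 100 to 499 summed reads, 10 of 10 major, 37 of 40 intermediate and 60 of 72 minor junctions were in all 6. Junctions listed in 1 library numbered 13, 45, 17, 48, 39 and 83 for alternative 3' and 8, 37, 21, 27, 37 and 47 for alternative 5' in passages 1 to 6. Minor junctions took 0.0512, 0.0812, 0.0666, 0.0820, 0.0732 and 0.0826% of junction reads. At the depth of passage 1 the expected shares were 0.0512, 0.0747, 0.0634, 0.0762, 0.0678 and 0.0761%, so passage 1 was lowest at equal depth too, by a smaller margin. The cause was not tested.

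Most alternative acceptors lay downstream of the known site, while the side on which most donors lay depended on a limit set by intron length. Of 562 alternative acceptors with a listed known junction, 524 (93.2%) lay downstream of the known acceptor, which shortens the exon, and 242 (43.1%) within 10 bases of it. Their median distance was 13 bases and the most frequent was 5 bases (40 junctions, 39 of them downstream). Of 431 alternative donors, 134 (31.1%) lay downstream of the known donor, at a median distance of 27 bases. No intron of a class other than Known was under 50 bases, so an upstream acceptor or a downstream donor could be listed only where the known intron was long enough. Where a shift of the same size in either direction left at least 50 bases, 252 of 290 acceptors (86.9%) and 134 of 229 donors (58.5%) lay downstream. The excess of downstream acceptors was thus seen under this limit too, and the excess of upstream donors was not. A shift of 4 bases stood out among donors, with 62 junctions (14.4%), 30 downstream and 32 upstream, and 56 of them were minor sites.

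**Figure D3:**
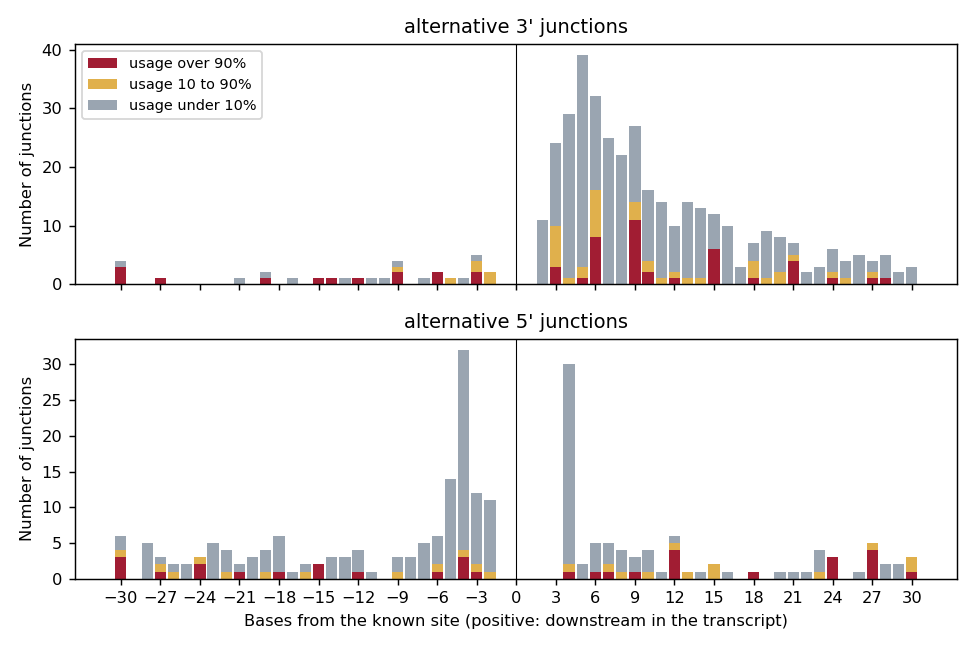
Number of alternative junctions at each distance of up to 30 bases from the known site, with positive values downstream in the transcript, coloured by usage. Acceptors pile up just downstream of the known site, donors 4 bases to either side of it, and junctions with usage over 90% lie mostly at multiples of 3.

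The distance to the known site and the usage went together. Among major junctions, 133 of 153 distances (86.9%, exact 95% interval 80.5 to 91.8%) were multiples of 3. The intermediate group had 58 of 107 (54.2%, 44.3 to 63.9%). The minor group had 197 of 733 (26.9%, 23.7 to 30.2%), below the 33.3% of evenly spread distances. Minor distances were not evenly spread, however. Of 326 minor donors 56 lay at 4 bases, and of 407 minor acceptors 36 lay at 5 and 29 at 4 bases, so 33.3% is only a rough mark. Both classes showed the same order: 88.6% of major and 28.3% of minor acceptors, and 84.6% of major and 25.2% of minor donors, had a distance divisible by 3. Usage limits of 5 and 95% or of 20 and 80%, chosen after the data were seen, gave 84.3 to 86.6% for major and 26.8 to 27.6% for minor junctions. Junctions of one genome are not replicates, so these intervals describe counting error only, and the files do not say which junctions lie in coding sequence.

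**Figure D4:**
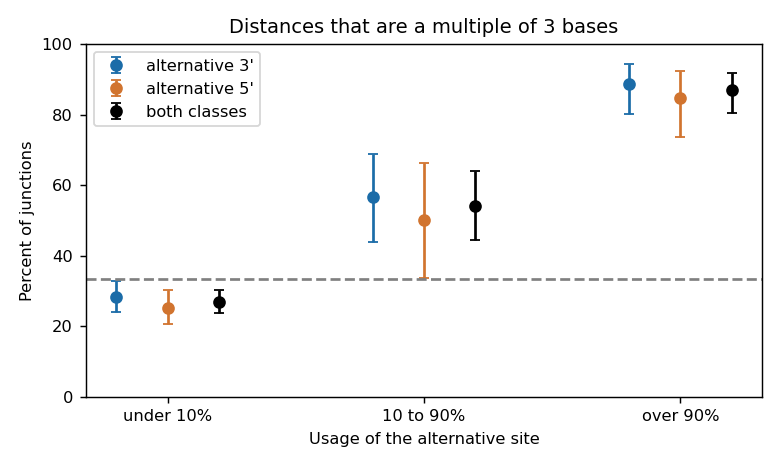
Percent of distances to the known site that are a multiple of 3 bases, by usage of the alternative site, with exact 95% binomial intervals. The dashed line is 33.3%. The share is 26.9% under 10% usage, 54.2% in between and 86.9% over 90% usage for both classes together.

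The floor of 50 bases did not hold for Known introns, of which 948 (8.53%) were shorter, down to 16. At 35 of the 153 major junctions the known intron was under 50 bases. Known introns had a median length of 61 bases.

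Most of the junctions with the highest read numbers were major ones. In CCM_00240, an ADP/ATP carrier (which exchanges ADP and ATP across the inner mitochondrial membrane), an acceptor 9 bases downstream had 29635, 44661, 32835, 36734, 41152 and 36416 reads in passages 1 to 6. Its known acceptor had 5, 13, 19, 25 and 26 reads in passages 1, 2, 3, 5 and 6 and was not listed in passage 4. Usage was 99.96%, so the annotated acceptor was hardly used in any library. This intron lies on scaffold NW_006271969.1 from 913090 to 913142, plus strand, in the coordinates of the deposited tables.

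CCM_03086, a glutathione peroxidase (an enzyme that reduces peroxides), used an acceptor 120 bases downstream with 10771, 15969, 9136, 16939, 12878 and 18145 reads, and its known acceptor was listed in passages 2 and 4 only, with 5 and 8 reads. Glycogen phosphorylase CCM_04198, which releases glucose units from glycogen, had 2 such donors in separate introns. The donor 12 bases downstream of the known one had 10628, 11756, 8377, 10188, 8799 and 10508 reads, a usage of 99.48%. The donor 9 bases downstream had a usage of 99.04%. Neither gene had a library in which the known site took more reads.

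Some other major junctions with high reads or usage sat in core machinery, and others in genes such as a hypothetical protein and integral membrane proteins. The ubiquitin-conjugating enzyme CCM_01358 used an acceptor 30 bases upstream with 3544, 9842, 9661, 10124, 10632 and 9997 reads, against 208, 519, 386, 350, 510 and 537 reads at the known acceptor. ATP synthase protein 9 (CCM_01006), the ring subunit of the mitochondrial ATP synthase, used a donor 4 bases downstream at 98.17%, one of the few major shifts that are not a multiple of 3. CCM_09655, the B18 subunit of NADH:ubiquinone oxidoreductase, was another, with an acceptor 10 bases downstream at 99.95%. Elongation factor 1-gamma (CCM_03874) used an acceptor 15 bases downstream at 99.95%, the Sec61 gamma subunit (CCM_07028), part of the channel into the endoplasmic reticulum, a donor 174 bases upstream at 99.95%, and the vacuolar ATP synthase subunit C (CCM_06641) a donor 15 bases upstream at 99.84%.

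Several of these introns carried more reads than the whole gene in the authors' expression table. In CCM_00488, annotated as 40S ribosomal protein S26E, the 3 best read alternative junctions summed to 54936, 50591 and 46262 reads over the 6 libraries, while the deposited counts of the gene were 13, 24, 19, 32, 31 and 25, or 144 in all. The first of these junctions thus had 382 times the reads of its gene. For the ATPase inhibitor CCM_06382 an acceptor 45 bases downstream had 56765 reads against a gene count of 796. For the hypothetical protein CCM_08839 an acceptor 47 bases downstream had 210730 reads against 15411. In the MFS alpha-glucoside transporter CCM_06039 one junction had 20256 reads, 46.6 times the gene count.

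Among the junctions of highest usage above, that of CCM_09655 had 459 times the gene count and that of CCM_07028 had 278 times. Known junctions gave similar values. Summed reads were above the count of the gene for 157 of 1657 alternative junctions (9.47%) and for 1186 of 11111 Known ones (10.7%), and above 10 times that count for 49 (2.96%) and 193 (1.74%). The sources used here do not say how the authors assigned reads to genes, so the FPKM of such a gene may not describe the transcripts its junctions belong to.

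Intermediate junctions were few. The 4 described first, among those with the most reads though not the 4 best read, kept their usage within 9 percentage points over passages. CCM_09293 and CCM_06983, with 4776 and 2982 summed reads, are described below. Their known junctions were unlisted in some libraries, and their usage ranged more widely. The acceptor 9 bases downstream in CCM_06039 had 1579, 4444, 2976, 3609, 3859 and 3789 reads, against 713, 2203, 1476, 1537, 2050 and 1794 at the known acceptor. Usage was 68.9, 66.9, 66.8, 70.1, 65.3 and 67.9%. In dbp-2 (CCM_09438), an ATP-dependent RNA helicase, an acceptor 6 bases downstream had a usage of 46.3, 40.2, 39.8, 44.9, 38.5 and 47.0%. The polyadenylated RNA-binding protein CCM_07419 spliced to an acceptor 6 bases downstream at 37.5, 35.7, 40.2, 38.3, 43.6 and 39.2%. In CCM_05213, a GTP-binding cell division protein, an acceptor also 6 bases downstream had 10.1, 12.1, 13.4, 13.5, 12.9 and 13.5%. In edgeR's test of a usage trend, a junction is set against the other junctions of its gene. None of these had an adjusted p under 0.05 in it.

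The aminotransferase CCM_07489 varied more. Its acceptor 114 bases upstream had 71, 180, 178, 252, 319 and 298 reads and the known acceptor 82, 125, 78, 80, 68 and 138. Usage was 46.4, 59.0, 69.5, 75.9, 82.4 and 68.3%, lowest in passage 1 and highest in passage 5. Relative to the other junctions of the gene, the slope of this acceptor was 0.27 on the log2 scale per passage, with an edgeR adjusted p of 1.0. That slope is not one of the percents above.

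**Figure D5:**
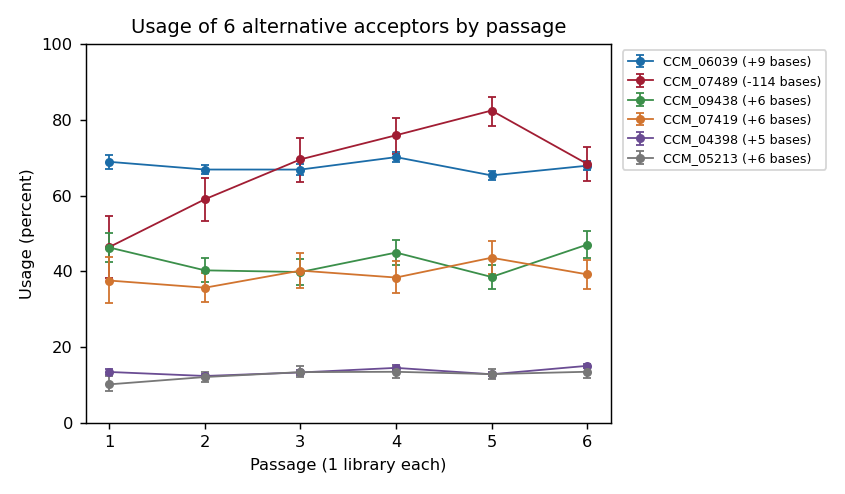
Usage of 6 alternative acceptors in passages 1 to 6 (1 library each) with exact 95% intervals of counting error, the legend giving the gene and the distance to the known acceptor. CCM_06039 stayed between 65.3 and 70.1%, and CCM_07489 ran between 46.4 and 82.4%.

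Usage had a wide range over libraries mainly where it was intermediate. Of 914 pairs with at least 20 reads in every library, 711 were minor and 146 major, and usage near either end of the scale leaves little room to move. The range over the 6 libraries had a median of 1.09 percentage points for the minor, 14.0 for the 57 intermediate and 2.57 for the major pairs. A range of at least 20 points was found for 20 pairs, of which 16 were intermediate. In 12 of the 20, one junction of the pair was not listed in some library and was taken as 0. Among the 46 intermediate pairs with both junctions listed in all 6 libraries, the median range was 10.9 points, 6 stayed within 5 points and 7 spanned at least 20. Usage at least 20 points away from that in passage 1 was found for 8 of 922, 11 of 917, 7 of 924, 10 of 922 and 10 of 924 alternative junctions in passages 2 to 6 (0.868, 1.2, 0.758, 1.08 and 1.08%). In 7, 6, 4, 7 and 6 of these, a junction of the pair was not listed in one of the libraries compared. Over junctions of every class with a known partner, alternative ones included, the shares were 0.741%, 1.04%, 0.888%, 1.04% and 0.888%. Over the other classes alone they were 0.467, 0.703, 1.17, 0.946 and 0.468%, from 2 to 5 junctions each, which is too few to set the classes apart. No test applies to single libraries, and all 5 comparisons share the passage 1 library.

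The trend of usage over passages, here the reads of a junction relative to the other junctions of its gene, was tested for 859 of the 1657 junctions, those that passed edgeR's expression filter in a gene with at least 2 such junctions, with unlisted junctions set to 0 reads. In that edgeR test 2 alternative junctions passed an adjusted p of 0.05, and 0.133% of all 11312 junctions tested did. At an unadjusted p under 0.05 there were 17 of the 859 (1.98%) and 153 of the 11312 (1.35%). An acceptor 15 bases downstream in CCM_00240, next to the major one above, had 466, 577 and 45 reads in passages 1, 2 and 4 and was not listed in passages 3, 5 and 6. It fell by 1.96 on the log2 scale per passage (edgeR adjusted p = 0.015). A donor 534 bases upstream in formate dehydrogenase CCM_03045 (an enzyme that oxidises formate) had 5, 167, 197 and 559 reads in passages 2, 4, 5 and 6 and was not listed in passages 1 and 3. Its slope was 1.77 (edgeR adjusted p = 0.015). The known donor had 65, 90 and 88 reads in passages 3, 5 and 6 and was not listed in passages 1, 2 and 4. Set against that known donor alone, usage was 100, 0, 100, 68.6 and 86.4% in passages 2 to 6.

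Against the dominant acceptor of the same intron in CCM_00240 the acceptor 15 bases downstream was a rare site. Against the annotated one its summed usage was 92.52%, so it is counted among the major sites. Both calls include libraries set to 0. Over the alternatives the adjusted p ran from 0.00165 to 1.0 for CCM_00240 and from 0.00141 to 1.0 for CCM_03045. Both were lost without passage 1, 2, 5 or 6, at 0.158, 0.113, 0.467 and 0.233 for CCM_00240 and 0.227, 0.2, 0.215 and 0.135 for CCM_03045, and with limma at 0.228 and 0.694. With DESeq2 the adjusted p was 0.172 for CCM_00240 and 0.0353 for CCM_03045.

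For reads not set against the rest of the gene, edgeR called 0 of 979 alternative junctions and 0.0% of all 15238. Unadjusted p fell under 0.05 for 134 of the 979 and 1988 of the 15238, and DESeq2 called 8 and 151. Set against passages 2 to 6 in a comparison chosen after the data were seen, the lone passage 1 library is assumed to vary like the others. With 1 library in that arm, a difference of passage 1 and a difference of that library cannot be told apart. The edgeR fit called the reads of 218 of 979 alternative junctions, 113 higher and 105 lower in passages 2 to 6 than in passage 1. That share, 22.3%, was near the background of 23.1% of all junctions. The median log2 difference was 0.13 for alternative and 0.10 for all junctions tested.

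In the same comparison, with the same limit, the usage of 2 alternative junctions was called, and 0.0972% of all 11312 tested. Both calls turn on a 0 set for passage 1. An acceptor of 60S ribosomal protein L30 (CCM_04673) had 1456, 1431, 1823, 1463 and 1071 reads in passages 2 to 6 and was not listed in passage 1 (edgeR adjusted p = 9.8e-06). An acceptor 5 bases downstream in the PCI domain protein CCM_07013 had 241, 125, 105, 192 and 62 reads in passages 2 to 6 and was not listed in passage 1 (edgeR adjusted p = 0.0138). In the trend over passages both had an edgeR adjusted p of 1.0. Gene FPKM of CCM_04673 was 104.89, 71.81, 72.22, 77.45 and 82.37 in passages 2 to 6 and 95.49 in passage 1, although the junction had 3.16 times the reads counted for the gene. Whether either junction was absent from passage 1 or dropped from its table was not tested.

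Such gaps were more frequent among alternative than among Known junctions. Of 528 alternative junctions with at least 100 reads in some library, 19 (3.6%) were not listed in another. Of 7151 Known junctions, 46 (0.643%) were. Reads above that limit were not matched between the 2 sets, and listing moved with reads. Among junctions with 500 to 1999 summed reads, 97.2% of alternative and 99.7% of Known ones were in all 6 libraries. An acceptor 27 bases downstream in histone H3 (CCM_07449) had 372 reads in passage 4 alone, and one 65 bases downstream in pyruvate decarboxylase (CCM_01231), which turns pyruvate to acetaldehyde, had 256 reads in passage 4 alone. In the 78 kDa subunit of NADH-ubiquinone oxidoreductase (CCM_04569) a donor 74 bases downstream had 916, 836, 817, 768 and 770 reads in passages 1, 2, 4, 5 and 6 and none listed in passage 3.

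Known junctions could drop out beside an alternative one that stayed. In glucose-6-phosphate dehydrogenase (CCM_06983), the first enzyme of the pentose phosphate pathway, an acceptor 2 bases upstream had 317, 493, 502, 599, 535 and 536 reads. Its known acceptor had 751, 1011 and 769 reads in passages 2, 4 and 5 and was not listed in passages 1, 3 and 6. The serine/threonine kinase CCM_09293 showed the same split of libraries at an acceptor 2 bases upstream, with the known acceptor at 317, 364 and 298 reads in passages 2, 4 and 5 and unlisted in the others. Usage of these pairs read 100% where the known junction was unlisted, and was 37.2 to 41.0% and 69.9 to 70.8% elsewhere. Whether the missing reads were absent or dropped in the authors' processing was not tested.

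Variants were found at some annotated splice sites in the RNA reads of these libraries. The authors' variant table has a change at the first or last 2 intron bases of 15 of the 1657 alternative junctions (0.905%) and of 32 of 11111 Known ones (0.288%). At the known site paired with an alternative one, a variant was found for 3 of 153 major (1.96%), 1 of 107 intermediate (0.935%) and 2 of 733 minor junctions (0.273%). These variants were called from RNA reads, so a base could be called only where reads covered it. Coverage was not matched between the groups, so differences in these shares cannot be told apart from differences in coverage. One deletion in the cyclophilin gene CCM_01722, in 94 reads against 310 without it, counts once among the major and once among the minor, and it also touches the alternative donors. The other minor case, in CCM_09146, is a deletion in 6 reads against 583. Positions below count from 1 along the scaffold, and letters name the reference base first, on the plus strand.

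In CCM_03839, a non-ATPase subunit of the 26S proteasome, the last base of the known intron carries G712003A on scaffold NW_006271971.1, in 2836 reads against 1 with the reference base. An acceptor 9 bases upstream had 404, 866, 979, 1084, 930 and 1192 reads, and the known one had 5 reads in passage 5 and was not listed elsewhere. In the membrane protein CCM_09465 the first base of the known intron carries C492849G on NW_006271977.1 in all 73 reads. This gene lies on the minus strand, where the change reads G to C. A donor 33 bases upstream had 694, 936, 723, 802, 822 and 762 reads, against 7 reads at the known donor in passage 3. In the phosphatase CCM_07845, also on the minus strand, the second base of the known intron carries A1862042G on NW_006271974.1 in all 49 reads. On the gene strand the change reads T to C. A donor 69 bases upstream had a usage of 71.0%, with 125 reads against 51 at the known donor.

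Variants also fell in alternative sites. In chitin synthase 1 (CCM_01980), which builds cell wall chitin, C158114T on NW_006271970.1 lies at the second base of a donor 5 bases upstream, in 2289 reads against 17. That donor had 5 and 7 reads in passages 2 and 6, against 792 and 575 at the known donor, and was not listed elsewhere. In the glucose receptor Git3 (CCM_07332), C112773T on NW_006271974.1 lies at the second base of a donor with 16, 16, 15, 17 and 15 reads in passages 2 to 6 and none listed in passage 1.

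By gene, 1036 of the 1281 genes held 1 alternative junction. The WD repeat protein 44 gene CCM_04398 held 11, the FAD-dependent oxidoreductase CCM_05329 held 7 and ribosomal protein S3Ae (CCM_03947) held 6. CCM_04398 had 1865 to 3032 FPKM. Its leading alternative acceptor, 5 bases downstream, had 1130, 2336, 1245, 1663, 1703 and 2189 reads against 7293, 16568, 8126, 9807, 11591 and 12375 at the known one. A further 4 acceptors used the same donor at 79, 57, 17 and 14 bases, with usage of 0.572, 0.773, 0.190 and 0.0486%.

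Minor junctions tracked expression. Genes were split into 4 groups of like size by mean FPKM. In the highest group (from 73.5 FPKM) 20.2% had a minor junction, and in the lowest (up to 10.5 FPKM) 1.56%. Genes with a major junction or one without a known partner made up 9.78% of the highest and 13.0% of the lowest group. Hosts of minor junctions had a median of 96.4 FPKM, hosts of major ones 64.7 and hosts of those without a known partner 20.1. Whether the groups differ beyond what this floor on reads imposes was not tested.

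Lists made from product names gave shares near the 19.8% of all genes with a junction. Alternative junctions were found in 34 of 144 ribosomal protein genes (23.6%), 22 of 79 splicing and RNA processing genes (27.8%), 21 of 82 oxidative phosphorylation genes (25.6%) and 24 of 97 proteasome and ubiquitin genes (24.7%). Transporters had 67 of 410 (16.3%), protein kinases 36 of 176 (20.5%), transcription factors 65 of 317 (20.5%) and secreted and cell wall enzymes 50 of 242 (20.7%). Expression differed between the lists as well, with a median of 120 FPKM for ribosomal protein, 43.8 for splicing and 14.4 for transporter genes, against 30.1 for all genes.

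Single members of these lists showed the same forms. The small nuclear ribonucleoprotein SmG (CCM_00114), a core spliceosome protein, used an acceptor 6 bases downstream at 99.74%, and the RNA-binding protein CCM_01225 a donor 15 bases upstream at 98.72%. The pH-response regulator pacC (CCM_01847) used an acceptor 3 bases downstream with 1610, 1138, 556, 790, 677 and 693 reads, against 112, 63, 40, 62, 36 and 51 at the known acceptor. The bZIP factor CCM_07969 used one 9 bases downstream at 92.18%. Among light and development regulators 1 of 15 genes was found, hymA (CCM_07465), a conidiophore development protein, with 8 reads in passage 2 and 5 reads in passage 4 at a pair of minor sites.

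Of the 4 cordycepin cluster genes, 2 held an alternative junction, neither with a listed known partner. CCM_04438 (cns3) had an alternative acceptor with 70, 60, 44, 77, 34 and 104 reads and CCM_04439 (cns4) an alternative donor with 11, 14, 5 and 23 reads in passages 2, 4, 5 and 6. Gene FPKM of CCM_04438 was 49.69, 56.42, 44.77, 62.45, 29.09 and 65.92, lowest in the same passage as the junction reads.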

How the data were processed

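Raw counts of reads per splice junction, with junction places and class words as other values, come from 5 tables deposited by the authors; passage 1 is identical in all 5 and was read once. Expected counts and FPKM per gene, variant quality scores, and read numbers for both bases of each variant (other values), are also as deposited by the authors. The submitters' processing notes name FastQC, Bowtie, TopHat2, Cufflinks and edgeR. Genome build, settings and strand use are not stated there. The deposited tables hold 62 per-sample columns that played no role. All 1281 genes matched the RefSeq gene table by locus tag.

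Junctions were joined by scaffold, strand and intron ends. Junctions not listed in a library were set to 0 in fits. Usage trends were fitted with edgeR 4.0.16 (glmQLFit, diffSpliceDGE), read trends with glmQLFTest, both over the whole table with TMM scaling, filterByExpr, passage number as a numeric term, two-sided, Benjamini-Hochberg at 0.05. limma 3.58.1 and DESeq2 1.42.0 (R 4.3.3) were alternatives. Tests were checked on simulated data. Intervals are exact binomial and cover counting error only.

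Named junctions are, per class, the 8 with most reads and the 6 of highest usage among pairs with at least 50 reads, those past 0.05, the 3 genes with most members and 2 per product list. Intermediate, unlisted, variant and high-ratio junctions were added after values were seen. The members and lists were chosen with earlier results of these data known.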

Additional observations from a re-analysis of the deposited data

How the results depend on the processing

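Minimum reads of 2 or 5 changed no count, since nothing under 5 is listed. Numbers per library at equal depth or at 10 reads, recurrence and median usage stayed within 1.5 times. So did median distance and shares of multiples of 3 with at least 10 summed reads, with distances up to 100 bases or with other usage limits. Among junctions listed in all 6 libraries, the share of multiples of 3 was 71.0% for alternative 3' and 56.2% for alternative 5', against 41.1% and 36.4% of all. Sites downstream of the known one were 86.9% of alternative acceptors and 58.5% of alternative donors where intron length left room for either direction, against 93.2% and 31.1% of all, and 8 of 170 pairs with both junctions listed in all 6 libraries spanned at least 20 points of usage. These 3 settings were chosen after the data were seen. Counts at least 20 points from passage 1 depend on the reads asked of a pair. With 50 reads in both libraries they were 5, 3, 4 and 5 in passages 2, 3, 5 and 6, and with 10 reads 15, 23, 12, 17 and 18 in passages 2 to 6. Usage trend calls were 51 (5 of them alternative junctions) with at least 10 summed reads, 170 (5) with DESeq2, 0 with limma (529 and 37 unadjusted) and 0 among junctions listed in all 6 libraries (131 and 14 unadjusted). Leaving out 1 passage in turn gave 1 to 22 calls and 0 to 2 alternative ones. Read trend calls were 151 (8) with DESeq2 and 0 to 1 without 1 passage, and 3521 (218) with passage 1 against passages 2 to 6. Causes were not tested. No paired analysis was possible because each passage has 1 library. Depth limits listing: a junction with up to 4 reads cannot be told from none.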

Other observations

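Junctions with at least 2000 summed reads were in all 6 libraries for 228 of 231 alternative and 3191 of 3193 Known junctions. Among junctions with 5 to 19 summed reads, 384 of 510 alternative (75.3%) and 385 of 601 Known ones (64.1%) were in 1 library. Variants at known introns were found at 11 and 13 of 11111 junctions for the first and second donor base. For the last acceptor bases they were found at 6 and 6, against 22 to 96 at each of bases 3 to 8 from either intron end. Read coverage at these bases was not compared and no genome sequence was read, so these counts do not establish that the deposited intron ends lie at the splice sites. In hexokinase (CCM_06280), the entry enzyme of glycolysis, an acceptor 77 bases downstream had 82 reads in passage 6, a usage of 28.7% there, and was not listed in the other 5 passages.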
